A study of Mus musculus with 17 samples.

Results

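mmu-miR-101a-3p and mmu-miR-101b-3p are the mature 3p products of the mouse genes Mir101a and Mir101b. They were taken by assay name from a real-time PCR panel of serum microRNA (miRNA), and make up 2 of its 357 miRNA assays. Serum came from 17 mice: 3 healthy wild-type FVB/N mice, 7 transgenic AT-ATX mice with no tumors and 7 transgenic AT-ATX mice with spontaneous tumors. Both transgenic groups carry an Autotaxin transgene, and the wild-type mice do not. Autotaxin is secreted and produces lysophosphatidic acid, a lipid that signals through cell surface receptors. The promoter of the transgene, the strain of the transgenic mice, and the ages and tumor sites are not stated in the labels. Each sample is labelled as a single mouse. Some animal numbers occur in labels of both transgenic groups, and whether they mark a litter or cage is not given. In the label of tumor replicate 5 a question mark stands where other labels have a number; without this mouse, miR-101b-3p in tumor against wild-type mice, described below, kept its call.

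A miRNA guides the Argonaute protein to messenger RNAs that pair with its seed, bases 2 to 8 counted from the 5′ end, and lowers their output. The miR-101 miRNAs are abundant in many tissues, liver among them. They are known as repressors of Ezh2, the histone methyltransferase of Polycomb repressive complex 2, and are often low in tumors. Serum holds miRNA released by many tissues and by blood cells, in vesicles, with lipoproteins or with Argonaute, so a serum level does not name its source. Fewer releasing cells and less miRNA released per cell cannot be told apart in serum.

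The mature sequences are shown because the 2 members are near copies that differ in where they start. They are from RefSeq (build GRCm38.p6), 5′ to 3′, with the seed in capitals, and miR-144-3p and miR-199a-3p are added as the other panel assays found to hold the bases ACAGUA within their first 9 bases, among the 260 of 317 mouse assays whose names matched a RefSeq sequence; the rest, and the 40 rat assays, were not searched.
miR-101a-3p: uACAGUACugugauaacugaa
miR-101b-3p: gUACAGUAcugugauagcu
miR-144-3p: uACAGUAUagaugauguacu
miR-199a-3p: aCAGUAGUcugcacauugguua
Aligned on ACAGUA, the annotated forms of miR-101a-3p (21 bases) and miR-101b-3p (19 bases) share 17 of 18 overlapping bases. The difference is A16G, counted from the 5′ end of miR-101a-3p. The annotated miR-101b-3p starts 1 base earlier, which shifts its seed to UACAGUA from the ACAGUAC of miR-101a-3p. miR-144-3p, encoded beside miR-451a and abundant in red blood cells, shares the first 6 bases of the miR-101a seed. Which 5′ ends the PCR assays read, and whether each also reads the other member, was not stated in the labels.

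The hairpins show where the measured arms lie. Capitals mark the annotated 5p and 3p arms, measured or not.
Mir101a: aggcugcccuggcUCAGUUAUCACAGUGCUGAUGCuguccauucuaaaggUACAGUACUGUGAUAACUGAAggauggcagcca
Mir101b: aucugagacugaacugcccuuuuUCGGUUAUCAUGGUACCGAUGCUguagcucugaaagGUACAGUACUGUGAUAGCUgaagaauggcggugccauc
In GRCm38.p6, miR-101a-3p lies at chr4:101346957-101346977 on the minus strand, within the long non-coding gene E130102H24Rik and between the coding genes Jak1 and Ak4. miR-101b-3p lies at chr19:29135338-29135356 on the plus strand, within the coding gene Rcl1 and between Ak3 and Jak2. The panel held the 5p arm of Mir101a (miR-101a-5p) as well, and no assay named for the 5p arm of Mir101b was used here.

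Both members were detected in all 17 sera. The deposited value is the quantification cycle (Ct), the PCR cycle at which the product crosses a threshold: the earlier the cycle the more template, with about a doubling per cycle. miR-101a-3p crossed at Ct 22.2, 23.3 and 25.9 in the wild-type mice, at 25.3 to 28.0 (median 25.7) in tumor-free mice and at 24.5 to 29.4 (median 26.3) in tumor mice. miR-101b-3p crossed at Ct 21.9, 23.1 and 26.0, at 24.8 to 27.1 (median 25.4) and at 24.9 to 29.0 (median 26.5) in the same order. By mean Ct they placed 36 and 33 among the 338 assays tested, against 1 for miR-451a and 206 for miR-101a-5p, though Ct also depends on each assay's efficiency. Raw Ct overlapped between wild-type and transgenic mice for both members.

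Sera differed in their mean Ct over the panel, from sources that were not tested, so each member was set against the panel. A level here is how many cycles a member came before the average of the panel (the mean Ct of 252 assays found in every serum), a log2 scale. Between 312 and 356 assays were detected per serum. The mean Ct of the 252 assays ran from 27.0 to 30.0 in wild-type mice, from 28.1 to 30.5 in tumor-free mice and from 28.0 to 31.7 in tumor mice. The hemolysis index, how many cycles miR-23a-3p came after the red blood cell miRNA miR-451a, ran from 3.71 to 7.82, from 3.56 to 5.54 and from 2.21 to 7.09 cycles. The last decimals of the deposited values took a single form in 4 sera (tumor-free replicates 4, 5 and 7 and tumor replicate 1) and 2 forms in the other 13; what this marks is not stated, and it is called the single decimal ending below. No wild-type serum was among the 4.

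The level of miR-101a-3p was 4.80, 4.84 and 4.08 in the 3 wild-type mice. In tumor-free mice it was 2.86, 2.53, 3.35, 3.68, 3.39, 3.47 and 3.52 (replicates 1 to 7), and in tumor mice 2.23, 3.30, 3.45, 3.60, 3.56, 3.65 and 3.47. All 14 transgenic mice thus lay below all 3 wild-type mice. Tumor replicate 1 and tumor-free replicate 2 were the lowest, and both had high mean Ct over the panel (31.7 and 30.5).

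The level of miR-101b-3p was 5.11, 5.03 and 3.93 in the 3 wild-type mice. In tumor-free mice it was 3.19, 3.37, 3.90, 3.93, 3.76, 3.54 and 4.05, and in tumor mice 2.63, 2.62, 3.39, 3.52, 3.84, 3.27 and 2.56. All 7 tumor mice lay below all wild-type mice, and tumor-free replicate 7 overlapped wild-type replicate 3. Wild-type replicate 3 was the lowest of its group for both members and had the highest mean Ct of its group (30.0).

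**Figure D1:**
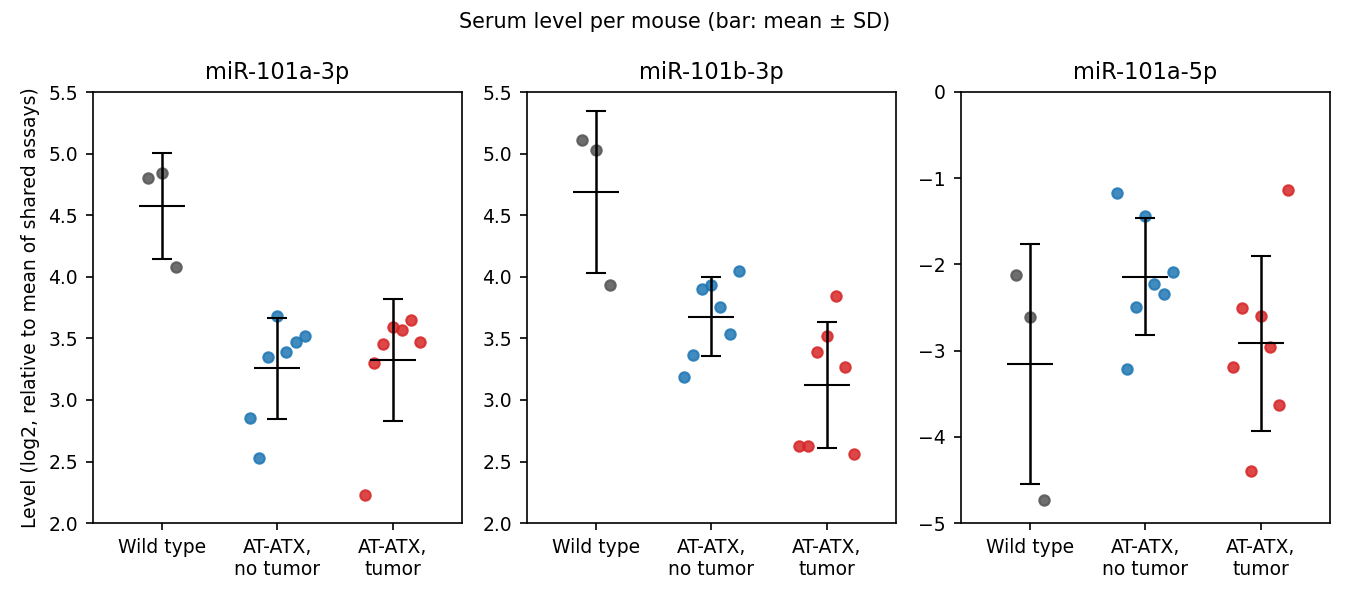
Level of miR-101a-3p, miR-101b-3p and miR-101a-5p in each mouse (points), on the log2 scale relative to the mean Ct of 252 assays, in wild-type (n = 3), tumor-free AT-ATX (n = 7) and tumor-bearing AT-ATX mice (n = 7), with bars for mean ± SD. All transgenic points of miR-101a-3p lie under the lowest wild-type point (4.08), while the groups overlap for miR-101a-5p, drawn on a lower axis range.

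Tumor-free transgenic mice were set against wild-type mice, and neither member passed. The transgene cannot be told apart here from strain or age, which are not given for the transgenic mice. miR-101a-3p had a mean level of 3.26 ± 0.41 (SD, n = 7) in tumor-free mice against 4.57 ± 0.43 (n = 3) in the wild type, which makes a log2 difference of -1.32 (SE 0.41, 95% interval -2.18 to -0.45, 2.50-fold lower, limma adjusted p = 0.132). miR-101b-3p had a mean level of 3.67 ± 0.32 and 4.69 ± 0.66, a difference of -1.02 (SE 0.42, 95% interval -1.89 to -0.14, 2.02-fold lower, limma adjusted p = 0.176). The intervals, which are not adjusted for the 338 assays, lay below 0 for both. In this comparison 0.592% of the 338 tested assays passed (1 higher, 1 lower), and 76 had an unadjusted p under 0.05. By unadjusted p, miR-101a-3p placed 12 and miR-101b-3p 48 among them. Groups that did not overlap, with transgenic mice lower, were found in 5.92% of assays, and miR-101a-3p was one of these 20. The exact permutation p of the difference of means was 0.00833 for miR-101a-3p, the smallest that 3 mice against 7 allow, and 0.0167 for miR-101b-3p (adjusted over all assays 0.0828 and 0.108).

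Between tumor mice and wild-type mice, miR-101b-3p fell and miR-101a-3p did not pass. miR-101b-3p had a mean level of 3.12 ± 0.51 (SD, n = 7) in tumor mice, 1.57 below wild-type mice on the log2 scale, a difference of -1.57 (SE 0.42, 95% interval -2.45 to -0.69, 2.97-fold lower, limma adjusted p = 0.0263). miR-101a-3p had a mean level of 3.32 ± 0.49, a difference of -1.25 (SE 0.41, 95% interval -2.12 to -0.39, 2.38-fold lower, limma adjusted p = 0.0593). Here 8.28% of the 338 assays passed (14 higher, 14 lower), so 1 member of 2 passed against that background, and the members placed 17 (miR-101b-3p) and 39 (miR-101a-3p) by unadjusted p. Both members were among the 13 assays (3.85%) whose tumor mice all lay below all wild-type mice.

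The call on miR-101b-3p rested on few wild-type mice and on the scaling. Leaving out tumor replicate 5, whose label is in doubt, gave -1.69 (limma adjusted p = 0.0152). The call was lost without wild-type replicate 1 (-1.36, limma adjusted p = 0.0943), wild-type replicate 2 (-1.40, 0.111) or tumor replicate 2 (-1.49, 0.053), without the 4 sera of single decimal ending (-1.49, 0.107), with only tumor and wild-type mice in the fit (0.159), and with 3 of the other scalings (spike-ins, reference miRNAs and raw Ct). The exact permutation p was 0.00833 (adjusted over all assays 0.201), the smallest that 3 against 7 mice allow. At least 57 of the 338 assays would have to reach that p for any to pass, and 14 did, so this test could pass none at it (0 passed, 45 at an unadjusted p under 0.05) and says nothing of how stable the call is. The same 3 wild-type mice serve both transgenic groups, so the 2 comparisons are not independent.

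How far the members differed from wild type varied with how sera were scaled. The median log2 difference of all 338 assays between tumor-free and wild-type mice was 0.03 relative to the panel mean, 0.78 with 4 reference miRNAs, -1.19 with spike-ins and -1.07 with raw Ct. miR-101a-3p differed by -1.32, -0.60, -2.46 and -2.34 under these scalings, and so by -1.35, -1.38, -1.28 and -1.27 relative to the median of all assays. miR-101b-3p differed by -1.02, -0.29, -2.16 and -2.04, or by -1.04, -1.08, -0.97 and -0.97 relative to that median. These scalings shift all assays of a serum by 1 amount, so the distance from the median is nearly fixed by their construction and its repetition is no further support. In tumor mice that distance was -1.44 for miR-101a-3p and -1.76 for miR-101b-3p relative to the panel mean. Quantile normalization, which does not move all assays alike, gave smaller distances, -1.03 for miR-101a-3p and -0.59 for miR-101b-3p in tumor-free mice, and -1.22 for miR-101b-3p in tumor mice. How much of each member a volume of serum held is not settled by these values.

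**Figure D2:**
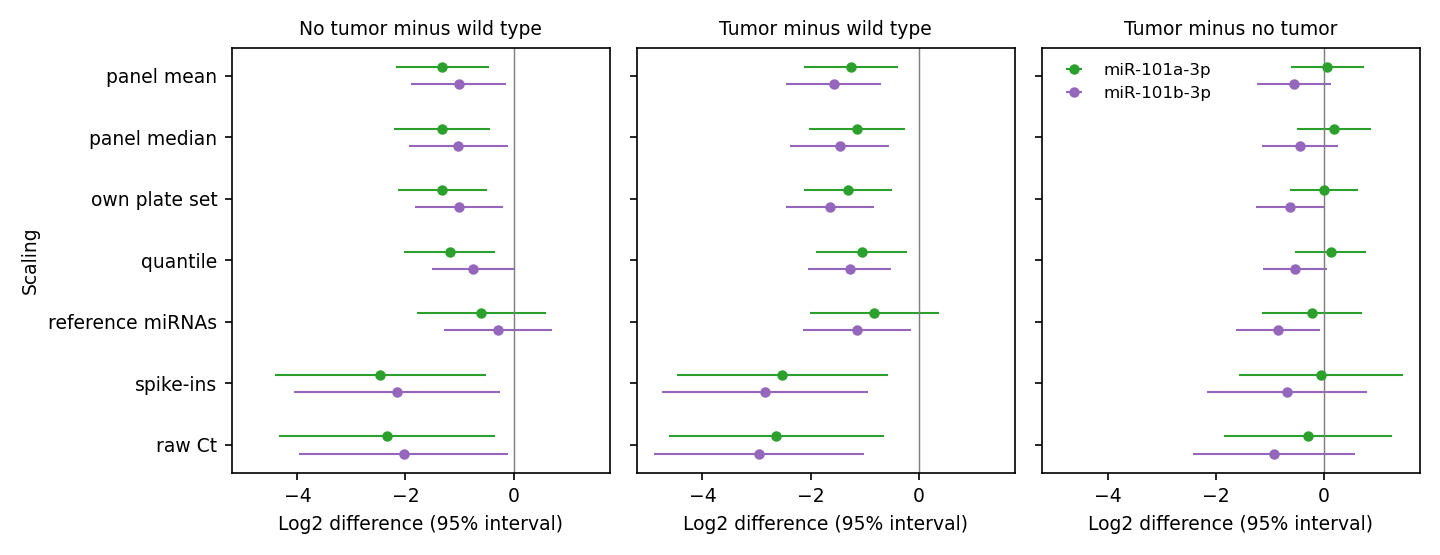
Log2 difference of miR-101a-3p (green) and miR-101b-3p (purple) in each of the 3 comparisons under 7 scalings (rows), with 95% intervals from limma, not adjusted for the number of assays; the vertical line marks 0. Both members lie below 0 against wild type under every scaling shown, with intervals that reach past 0 with reference miRNAs for both members in tumor-free mice and for miR-101a-3p in tumor mice, and with quantile normalization for miR-101b-3p in tumor-free mice, while miR-101a-3p lies on both sides of 0 between tumor and tumor-free mice. In that comparison miR-101b-3p lies below 0 throughout, with an interval wholly below 0 only with reference miRNAs.

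The place of each member within its own serum needs no scaling. Ranked by Ct among the 252 shared assays, miR-101a-3p placed 22, 27 and 28 in the wild-type mice, 36 to 55 (median 43) in tumor-free mice and 34 to 61 (median 38) in tumor mice. miR-101b-3p placed 21, 26 and 30, 32 to 46 (median 35) and 35 to 55 (median 45). For both members no transgenic mouse reached the place of any wild-type mouse, although by level miR-101b-3p overlapped between tumor-free and wild-type mice. Of the 252 ranked assays, 5.56% (14) lay later in all tumor-free than in all wild-type mice and 3.97% (10) later in all tumor than in all wild-type mice.

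Between tumor and tumor-free transgenic mice, the question was whether tumors go with a further difference, and neither member passed. miR-101a-3p stood at 3.32 ± 0.49 and 3.26 ± 0.41, a log2 difference of 0.07 (SE 0.32, 95% interval -0.60 to 0.74, limma adjusted p = 0.916), and its direction turned with reference miRNAs (-0.23), raw Ct (-0.29) and spike-ins (-0.06), and without tumor-free replicate 2 (-0.05). miR-101b-3p stood at 3.12 ± 0.51 and 3.67 ± 0.32, a difference of -0.56 (SE 0.33, 95% interval -1.24 to 0.12, 1.47-fold lower, limma adjusted p = 0.423). The exact permutation p was 0.0367 for miR-101b-3p and 0.801 for miR-101a-3p (adjusted over all assays 0.243 and 0.893). With reference miRNAs miR-101b-3p differed by -0.85 (95% interval -1.62 to -0.07, limma adjusted p = 0.391). In this comparison 1.48% of the 338 assays passed (1 higher, 4 lower), and neither member was among them. For miR-101b-3p, tumor replicates 1, 2 and 7 (2.63, 2.62 and 2.56) lay below all tumor-free mice, and the other 4 lay within their range.

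The members were then set against each other within a serum, as the Ct of miR-101b-3p minus that of miR-101a-3p, a measure free of any scaling and higher where there is relatively more miR-101a-3p. Both assays fell in the same set of assays by decimal ending. A difference of 0 does not mark equal amounts, since Ct also depends on each assay's efficiency. The difference was -0.30, -0.19 and 0.145 cycles in wild-type mice. In tumor-free mice it was below 0 in 7 of 7: -0.33, -0.84, -0.56, -0.25, -0.37, -0.07 and -0.52. In tumor mice it was -0.40, 0.68, 0.06, 0.07, -0.28, 0.38 and 0.91, above 0 in 5 of 7. The highest tumor-free value lay below those 5 tumor mice, and the other 2 tumor mice, replicates 1 and 5, overlapped the tumor-free group.

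The mean was 0.20 ± 0.48 cycles (SD, n = 7) with tumors. Without tumors it was -0.42 ± 0.25 (n = 7), so the groups stood 0.62 cycles apart (exact permutation p = 0.00932). With adjustment over the 21 tests of within-serum differences this did not pass (adjusted p = 0.0979), nor did it without any 1 of the 17 mice (0.51 to 0.72, exact permutation adjusted p from 0.0612 to 0.202). Tumor-free and wild-type mice differed by -0.30 (exact permutation p = 0.125, adjusted p = 0.375), and tumor and wild-type mice by 0.32 (exact permutation p = 0.333, adjusted p = 0.583).

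**Figure D3:**
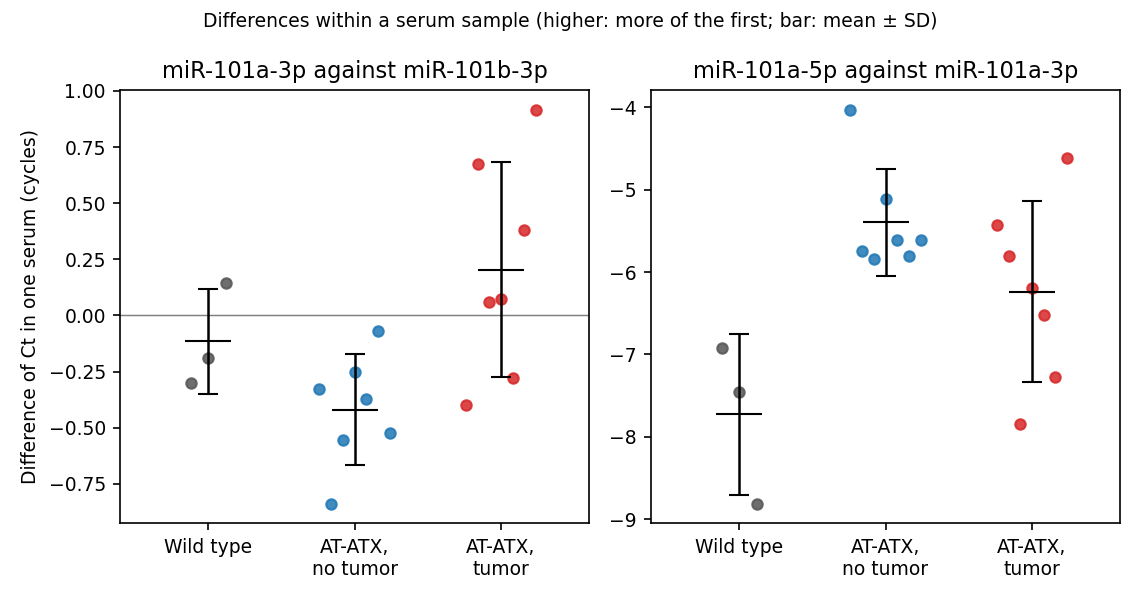
Left, Ct of miR-101b-3p minus Ct of miR-101a-3p in each serum (cycles), and right, Ct of miR-101a-3p minus Ct of miR-101a-5p, for wild-type (n = 3), tumor-free (n = 7) and tumor-bearing (n = 7) mice, with bars for mean ± SD. A higher point means relatively more of the miRNA named first in the panel title, and 0 does not mark equal amounts. On the left all tumor-free mice lie below 0 and 5 of 7 tumor mice above it; on the right all tumor-free mice lie above all wild-type mice.

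The levels of the members were correlated across mice. Over the 17 sera, with each group's mean taken off, miR-101a-3p and miR-101b-3p had r = 0.69 (permutation p = 0.00144, adjusted p = 0.0158 over 11 relations) and rho = 0.67 (permutation p = 0.00765, adjusted p = 0.0841, which did not pass). Without the 2 mice farthest from the median of miR-101b-3p, r was 0.74. It was 0.80 within tumor-free mice, 0.54 within tumor mice and 0.65 over the 13 sera of 2 decimal endings. Both levels hold the same panel mean, and a shared amount of serum RNA enters both assays.

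**Figure D4:**
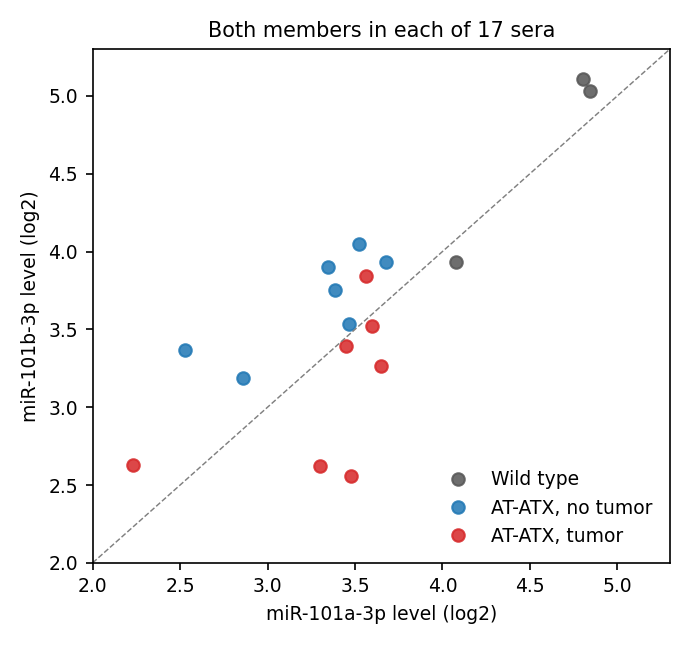
Level of miR-101a-3p (x axis, log2) against that of miR-101b-3p (y axis, log2) in 17 sera, with the dashed line where the levels are equal, which does not mean equal amounts. Wild-type mice sit at the upper right, at 4.08 or more for miR-101a-3p, tumor-free mice lie above the line and 5 of 7 tumor mice lie below it.

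The 5p arm of Mir101a, usually the less abundant strand, had a mean Ct of 32.0 against 25.8 for the 3p arm. Relative to the panel mean, its difference from wild type lay on the other side of 0. Its mean raw Ct was 31.53 in wild-type, 31.53 in tumor-free and 32.67 in tumor mice, so raw Ct did not show this opposite sign. Its level was -2.12, -2.61 and -4.73 in wild-type mice, -3.22 to -1.18 (median -2.23) in tumor-free mice and -4.39 to -1.14 (median -2.96) in tumor mice, and the groups overlapped throughout. It differed by 1.01 between tumor-free and wild-type mice (SE 0.64, limma adjusted p = 0.37), by 0.24 between tumor and wild-type mice (0.853) and by -0.78 between tumor and tumor-free mice (0.434). The miR-101a-5p assay belonged to the other set of assays by decimal ending.

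Within a serum, the Ct of miR-101a-3p minus that of miR-101a-5p, a test chosen after these values were seen, was -6.92, -7.45 and -8.81 cycles in wild-type mice. It was -5.84 to -4.03 (median -5.61) in tumor-free mice and -7.84 to -4.62 (median -6.19) in tumor mice. All 7 tumor-free mice lay above all wild-type mice: the means were -5.40 ± 0.65 (n = 7) and -7.73 ± 0.97 (n = 3), which lie 2.33 apart (exact permutation p = 0.00833, adjusted p = 0.025 over 3 tests, the smallest p that 3 against 7 allow). The miR-101a-5p assay crossed late, at Ct 34.7 in wild-type replicate 3 and at up to 33.7 in tumor-free mice. The arms also lay in different sets of assays by decimal ending. The test contains miR-101a-3p, whose levels already did not overlap between these groups. Its p-values, adjusted apart from the other 21 within-serum tests, thus describe these mice and are no further support. How many other pairs of assays separate these groups was not tested. Without any 1 wild-type mouse the difference was 1.79 to 2.74, and without wild-type replicate 1, 2 or 3 alike the exact permutation adjusted p was 0.0833, with fewer splits left. Without the 4 sera of single decimal ending the difference was 2.37, with an exact permutation adjusted p of 0.0857, which did not pass. The smallest exact permutation p that 3 against 4 mice allow is 0.0286, so passing after adjustment hung on the other tests as well. Tumor mice differed from wild-type mice by 1.49 (exact permutation p = 0.075, adjusted p = 0.108) and from tumor-free mice by -0.84 (exact permutation p = 0.108, adjusted p = 0.108).

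Of the assays that share the ACAGUA bases, none passed. miR-144-3p had a level of 6.20, 9.54 and 6.56 in wild-type mice, 5.10 to 7.84 in tumor-free mice and 4.52 to 8.63 in tumor mice, with differences from wild type of -1.17 and -0.81 (limma adjusted p = 0.431 and 0.614). miR-199a-3p, abundant in fibroblasts and smooth muscle, had differences from wild type of 2.35 in tumor-free mice and 2.02 in tumor mice (limma adjusted p = 0.161 and 0.176), the opposite sign to the members. Between tumor and tumor-free mice these assays differed by 0.36 and -0.33 (limma adjusted p = 0.81 and 0.842). miR-144-3p thus had the members' sign against wild type and miR-199a-3p did not, and the spread among wild-type mice was wide for both.

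Red blood cell RNA was followed because red blood cells are a source of serum miRNA. Of 7 tested red blood cell miRNAs (10 listed), 7 had differences below 0 against wild type in tumor-free mice and 7 in tumor mice, and 0 passed, with medians of -1.17 and -0.74 against 0.03 and 0.19 over all assays. miR-451a, abundant in red blood cells, ran from 9.62 to 11.6 in wild-type mice, 9.50 to 11.2 in tumor-free mice and 8.61 to 12.2 in tumor mice. With the level of miR-451a as a covariate, the difference of tumor from wild-type mice was -1.49 for miR-101b-3p (limma adjusted p = 0.0105) and -1.24 for miR-101a-3p (limma adjusted p = 0.0278). With the hemolysis index as the covariate it was -1.37 for miR-101b-3p (limma adjusted p = 0.0319) and -1.17 for miR-101a-3p (limma adjusted p = 0.0705), which did not pass. Over all 338 assays in this comparison, 49 passed with the miR-451a covariate and 26 with the hemolysis index, against 28 with neither. Set directly against miR-16-5p, a red blood cell miRNA, the Ct difference of miR-101a-3p changed by 0.00 cycles between wild-type and tumor-free mice (exact permutation p = 1) and by -0.35 between wild-type and tumor mice (exact permutation p = 0.567). Against miR-451a these changes were -0.83 (exact permutation p = 0.275) and -0.82 (exact permutation p = 0.367). For miR-101b-3p the changes were 0.31 (exact permutation p = 0.583) and -0.68 (exact permutation p = 0.233) against miR-16-5p, and -0.52 (exact permutation p = 0.467) and -1.14 (exact permutation p = 0.175) against miR-451a. Between tumor-free and tumor mice miR-101b-3p changed by -0.98 against miR-16-5p (exact permutation p = 0.0321, adjusted p = 0.175) and miR-101a-3p by -0.36 (exact permutation p = 0.497). What part red blood cell RNA had in the members' differences was not tested beyond these values.

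No relation of a member's level to the red blood cell measures passed over all mice. With group means taken off, miR-101a-3p had r = 0.17 with the hemolysis index (permutation p = 0.593, rho = 0.14, permutation p = 0.608) and miR-101b-3p had r = 0.42 (permutation p = 0.182, rho = 0.32, permutation p = 0.327). Within groups of 7 the hemolysis index had r = 0.81 with miR-101b-3p among tumor mice and -0.44 among those without tumors, and r = 0.47 and -0.65 with miR-101a-3p. miR-144-3p had r = 0.82 and -0.05 with miR-101b-3p in the same order. Whether these differ between groups was not tested. Of the 11 relations computed, that between the members was the only one whose r passed after adjustment.

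A list of liver miRNAs, not all of them confined to hepatocytes, was compared because the liver is rich in miR-101. Like the other lists, it was chosen with earlier results of these data known, so its counts are no separate support. Of 13 liver miRNAs, 7 were below 0 in tumor-free against wild-type mice with 0 passing (median -0.12), and 10 were below 0 in tumor against wild-type mice with 3 lower calls (median -0.85, against 0.19 over all assays, of which 4.14% were lower calls): miR-802-5p (-2.26, limma adjusted p = 0.00776), miR-194-5p (-2.56, limma adjusted p = 0.019) and miR-192-5p (-1.57, limma adjusted p = 0.0199). In tumor against tumor-free mice 10 of 13 were below 0 (median -0.67, against 0.14 over all assays) and 1, miR-802-5p (-1.99, limma adjusted p = 0.0105), fell, where 1.18% of all assays were lower calls. Set against the hepatocyte miRNA miR-122-5p within a serum, miR-101a-3p was 4.75 ± 0.50 cycles later in tumor-free mice and 3.05 ± 1.27 cycles later in tumor mice, a change of 1.70 (exact permutation p = 0.00583, adjusted p = 0.0979). It passed only without tumor replicate 5 (2.01, adjusted p = 0.0367, exact permutation). For miR-101b-3p the change was 1.08 (exact permutation p = 0.0798, adjusted p = 0.292). miR-122-5p itself ran from 7.11 to 8.71 in tumor-free mice and from 4.44 to 8.48 in tumor mice.

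Other miRNAs reported to repress Ezh2 were also on the panel: 8 of 9 listed were tested, and 0 passed in any comparison. Against wild type 6 of 8 were below 0 in tumor-free mice (median -0.54) and 6 of 8 in tumor mice (median -0.78). In tumor against tumor-free mice 7 of 8 were (median -0.49). The medians over all assays were 0.03, 0.19 and 0.14 in the same order. The list holds let-7a, let-7b and let-7c, and miR-26a and miR-26b, so the counts are not of unrelated miRNAs. Named after their values were seen, the lowest in tumor against wild-type mice were let-7a-5p (-2.01, limma adjusted p = 0.0644) and miR-26a-5p (-1.77, limma adjusted p = 0.0545), while miR-138-5p lay the other way (1.54, limma adjusted p = 0.0593). Of the platelet markers, miR-223-3p, abundant in platelets and neutrophils, was higher in tumor than in wild-type mice (1.96, limma adjusted p = 0.0333), 1 of 3 tested, where 4.14% of all assays were higher calls. Of the other platelet markers, miR-24-3p differed by 0.67 and miR-126a-3p by -0.90 (limma adjusted p = 0.32 for each). Of 3 listed white blood cell markers, miR-150-5p and miR-155-5p were above 0 against wild type, with 0 passing. Their medians were 1.76 in tumor-free and 1.09 in tumor mice, against 0.03 and 0.19 over all assays. The third, listed as miR-142a-3p, was matched to no assay by that name. The assay named miR-142-3p lay the other way, at -2.56 in tumor-free mice (limma adjusted p = 0.202). In tumor mice it was -3.91 (limma adjusted p = 0.0467), which passed, where 4.14% of all assays were lower calls.

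The assays most like the members were named by the Pearson correlation of their level with the mean of the 2 members over the 17 sera, group means taken off, among the 250 other assays detected in all sera. They were let-7b-5p (0.80), miR-345-5p (0.64), miR-185-5p (0.63), miR-30e-5p (0.63) and miR-324-3p (0.59), and 0 of the 5 passed in any comparison. The least like were miR-466j (-0.83), the rat assay miR-511-5p (-0.74) and let-7d-3p (-0.72). All 5 of the first lay in the members' set of assays by decimal ending, and the last 3 in the other set. These are descriptions of sera that share a panel mean, and levels relative to it must fall in some assays where they rise in others.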

How the data were processed

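Per the labels' protocols, blood was spun after necropsy, serum RNA was extracted and copied to cDNA with Exiqon kits, and SYBR Green PCR was run on Exiqon serum miRNA panels I and II. The deposited values are Ct per assay and mouse, not normalized by the authors per the file's name; how the threshold was set and plates were calibrated is not stated in the sources used here. Of 365 deposited assays, 8 are controls and 357 are miRNAs. Empty cells were taken as not detected. Assays detected in at least 2 wild-type, 5 tumor-free and 5 tumor mice were tested (338). A single limma model (limma 3.58.1 in R 4.3.3) held all 3 groups. Its p-values are two-sided, were adjusted by Benjamini-Hochberg per comparison across the 338 assays, and passed at 0.05. The fit was tested on simulated data whose shifts were larger than the members' differences, so differences of their size were not tried.

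Within-serum Ct differences were compared between groups by exact permutation (two-sided, on the means), adjusted over 21 tests, and those between the arms over 3. The smallest exact p for 3 against 7 mice is 0.00833. Correlations used 100000 reorderings within groups and were adjusted over 11 relations. These steps ran in Python 3.11.15 (scipy 1.17.1, numpy 2.4.6 and, for tables, pandas 2.3.3). The last decimals split the assays into sets of 245 and 120, taken as plate sets. Sequences were matched by miRNA name to RefSeq. Named assays were the members, assays sharing their seed bases, the 5 most and 3 least alike, list members that passed, and marker miRNAs. Members and lists were chosen with earlier results of these data known. The limma p-values weigh a difference against the spread between mice as labelled. That spread was taken over all 3 groups and drawn toward that of the other assays. Exact permutation compared a difference with those of other splits of the same mice. The number of mice limits the precision.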

Additional observations from a re-analysis of the deposited data

Results flagged for a closer look

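The level of miR-101a-3p in tumor replicate 1 was 2.23, with the nearest other tumor mouse at 3.30, so that the gap took 0.752 of the group's range (limit for 7 samples 0.568). This serum had the fewest assays detected (312), the highest mean Ct over the panel (31.7) and a single decimal ending; what part these had was not tested. Without it miR-101a-3p differed by 0.25 between tumor and tumor-free mice and by -1.07 between tumor and wild-type mice.

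The Ct of miR-101a-3p minus that of miR-101a-5p in tumor-free replicate 1 was -4.03 cycles, with the nearest tumor-free mouse at -5.12, a gap of 0.601 of the range. Of 22 groups looked at, 2 stood out in this way, and chance alone sets apart about 1 group in 20.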

How the results depend on the processing

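Against wild type, both members kept their sign under every other setting run. In tumor against wild-type mice, miR-101a-3p passed with a limit of Ct 35 (-1.28), the miR-451a covariate (-1.24), assays detected in all sera (-1.25), scaling to its own plate set (-1.31) or a trended robust variance (-1.25). In the same order 33 of 260, 49 of 338, 33 of 252, 33 of 338 and 30 of 338 assays passed. The main fit had 28 of 338. miR-101b-3p no longer passed with only those 2 groups (-1.57), raw Ct (-2.95), reference miRNAs (-1.14), spike-ins (-2.84), without single-ending sera (-1.49) or by exact permutation (-1.57, with no assay able to pass at the smallest p reached), and leaving out each mouse gave -1.95 to -1.36. In tumor against tumor-free mice, miR-101a-3p turned sign with raw Ct (-0.29), reference miRNAs (-0.23) and spike-ins (-0.06), and leaving out each mouse gave -0.053 to 0.25. The cause was not tested.

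Without single-ending sera, miR-101b-3p against miR-122-5p (tumor and wild-type) turned to -0.024 and miR-101a-3p against miR-16-5p (tumor-free and wild-type) to -0.12, and the arm difference between tumor-free and wild-type mice, at 2.37, no longer passed, with fewer splits left. With each arm scaled to its plate set, the arm difference between tumor and wild-type mice passed (1.70). Leaving out each mouse gave 1.79 to 2.74 for the arm difference of tumor-free from wild-type mice and -1.11 to -0.58 for that of tumor from tumor-free mice, the latter passing without tumor replicate 7. For within-serum differences it gave, against miR-451a, -0.28 to 0.29 (miR-101a-3p, tumor and tumor-free) and -0.87 to 0.18 (miR-101b-3p, tumor-free and wild-type). Against miR-122-5p it gave 1.33 to 2.01 (miR-101a-3p, tumor and tumor-free) and -0.21 to 0.81 (miR-101b-3p, tumor and wild-type). Against miR-16-5p it gave -0.21 to 0.38 and -0.58 to 0.019 (miR-101a-3p, tumor-free and tumor against wild-type), and -0.038 to 0.77 (miR-101b-3p, tumor-free and wild-type).

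Raw Ct and spike-in scaling leave the amount of serum RNA in the levels. With them r between miR-101a-3p and the hemolysis index turned to -0.058 and -0.037. These relations then passed: the mean Ct (-0.96 and -0.95 for miR-101a-3p, -0.94 and -0.92 for miR-101b-3p), miR-451a (0.65 and 0.64, 0.73 and 0.72), miR-122-5p (0.87 and 0.89, 0.85 and 0.86), and miR-144-3p with miR-101b-3p (0.68 and 0.67).

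Over all assays, the 28 calls between tumor and wild-type mice became 1 with only those groups, 15 (0 higher) with raw Ct, 9 (8 higher) with reference miRNAs, 8 (0 higher) with spike-ins, 49 with the miR-451a covariate and 14 without single-ending sera. The 5 calls between tumor and tumor-free mice became 0 with raw Ct, reference miRNAs and spike-ins and without single-ending sera, 8 with only those groups, 13 with the hemolysis index and 16 with miR-451a as covariate. The 2 between tumor-free and wild-type mice became 0 with raw Ct and spike-ins, and between 1 and 15 under the other settings, most with only those groups and then with the miR-451a covariate (10). By exact permutation 0 passed in any comparison, with 57, 85 and 45 assays at an unadjusted p under 0.05 (tumor and tumor-free, tumor-free and wild-type, tumor and wild-type). Replicate numbers here follow accession order and pair no mice, but 2 animal numbers, on 6 mice, occur in both transgenic groups, with no stated meaning. In a fit chosen after seeing the data, with the animal number as a replicate block (random, estimated correlation 0.070), no call on a member changed: miR-101b-3p in tumor against wild-type mice gave -1.57 (limma adjusted p = 0.0277) and miR-101a-3p -1.24 (0.0634), and the calls over all assays were 6, 3 and 28 (tumor and tumor-free, tumor-free and wild-type, tumor and wild-type). With 3 wild-type mice, single mice decided calls, and the depth of a Ct value is unknown.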
